A study of Mus musculus with 2 samples.

Results

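The 9 genes described here encode subunits of CatSper, the calcium channel of the sperm tail. They are Catsper1, Catsper2, Catsper3, Catsper4, Catsperb, Catsperd, Catsperg1, Catsperg2 and Efcab9. They were taken by symbol from gene and transcript tables of adult mouse testis, and all 9 were found among 43346 Ensembl genes, 21474 of them annotated as protein-coding. The tables list 30 transcripts for them.

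Poly(A)-selected, ribosomal RNA-depleted testis RNA over 200 nucleotides long was sequenced by the submitters as stranded read pairs of 76 nucleotides, in 2 libraries called biological replicates 1 and 2. Both came from male C57BL/6J mice aged 8 weeks, described as littermates, with no treatment and no genetic change named. One donor identifier is shared by the labels of both libraries, so separate animals are not assured, and the spread given below may be partly technical. There is 1 group, so there is no contrast between conditions and no test between groups.

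CatSper lies in the membrane of the principal piece of the sperm flagellum. It opens as the cell interior turns alkaline, and the calcium that enters drives hyperactivated swimming. Each of the pore proteins CATSPER1, CATSPER2, CATSPER3 and CATSPER4 contributes to a shared pore, and male mice that lack any of them are infertile. The beta, gamma and delta proteins, from Catsperb, the Catsperg genes and Catsperd, carry large extracellular domains that cap the pore. EFCAB9 is an EF-hand protein that binds calcium and pairs with CATSPERZ on the inner face of the channel.

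Expected counts, the authors' estimates of reads per gene, summed to 49023238 in replicate 1 and 51465728 in replicate 2 over Ensembl genes. The 9 genes took 84384 and 105592 of them, 0.172% and 0.205%. Defining markers of spermatids were abundant, with summed TPM (the length-scaled abundance of a transcript among all transcripts) of 4198 and 4569 for 6 round spermatid genes and 71282 and 67454 for 6 elongating spermatid genes. The libraries stood apart in markers of the epididymis, the duct beside the testis. The summed TPM of 6 epididymal genes was 751.7 in replicate 1 and 0.47 in replicate 2, where Adam7, Lcn8 and Defb28 were listed at 0. Most of the sum in replicate 1 was from Crisp1 at 454.3, Spink8 at 193.6 and Defb28 at 96. Lcn8 and Rnase9 were under a TPM of 1 in both libraries. Levels of single genes and transcripts are therefore given for each library, and the median of a list is that of its genes' mean TPM.

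All 9 genes were detected, meaning that TPM reached 1 in each library, against 62.1% of protein-coding genes and 35.8% of all genes. Their median TPM, over the mean of the libraries, was 112.2, and that of detected protein-coding genes was 12.9. The level ran from 216.6 ± 21.6 (SD, n = 2) for Catsperg1 to 15.7 ± 4.12 for Catsperb. In a bulk sample, fewer cells that express a gene and less RNA per cell cannot be told apart.

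**Figure D1:**
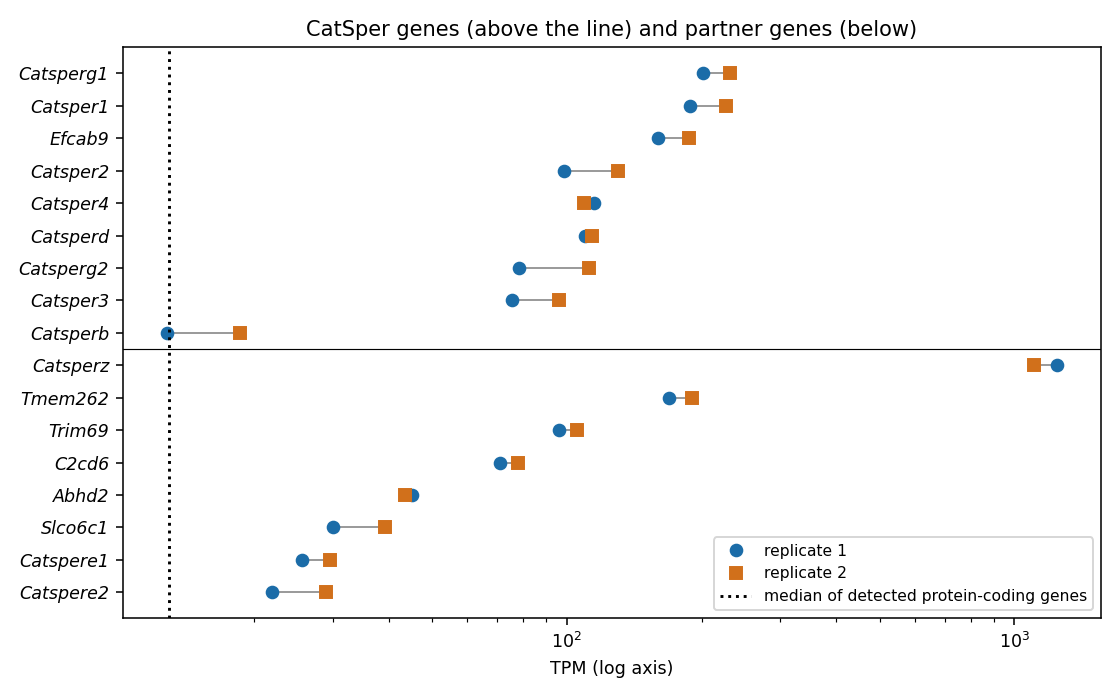
TPM of the 9 CatSper genes (above the line) and 8 partner genes (below) on a log axis, with a circle for replicate 1 and a square for replicate 2. The dotted line is the median of detected protein-coding genes at 12.9, and Catsperb is the CatSper gene nearest to it.

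Catsper1, at chr19:5335741-5344280 on mm10, encodes the pore protein with a histidine-rich N terminus. Its TPM was 188.7 in replicate 1 and 226.4 in replicate 2, from 14161 and 17688 expected counts. It was the highest pore gene in both libraries, and ranked 807th of 21474 protein-coding genes by mean TPM.

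Catsper2, at chr2:121392631-121413792, had a TPM of 98.5 and 130.3, from 8087 and 11134 counts. Catsper4, at chr4:134211970-134227383, had a TPM of 115.1 and 109.2, from 6889 and 6838 counts. Their order turned between the libraries, Catsper4 being the higher in replicate 1 and Catsper2 in replicate 2, so their levels did not differ beyond their spread. Catsper3, at chr13:55784568-55808998, was the lowest pore gene in both libraries, with a TPM of 75.5 and 96.2 from 3430 and 4546 counts.

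Relative to Catsper1 in the same library, Catsper2 stood at 52.2% and 57.6%, Catsper4 at 61.0% and 48.2%, and Catsper3 at 40.01% and 42.5%. The highest pore gene was 2.50 times the lowest in replicate 1 and 2.35 times in replicate 2. Transcripts for partners of a shared pore were thus present at unequal levels in each library. The ranges of Catsper1 and Catsper3 over the libraries did not overlap with those of any other pore gene.

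Catsper1, Catsper2 and Catsper4 were each carried mainly by 1 transcript. Catsper1 had a single listed transcript. Catsper4-201 held 96.5% and 97.6% of Catsper4, and Catsper2-201 held 92.0% and 93.1% of Catsper2. The other visible Catsper2 form was Catsper2-204, annotated as a target of nonsense-mediated decay, the pathway that degrades RNA with an early stop codon. Its share was 7.17% and 5.97%, and its TPM 7.06 and 7.79.

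Catsper3 was divided between 2 coding transcripts that differ at the start of exon 3. Catsper3-201 begins that exon at chr13:55798744 on the plus strand, and Catsper3-202 begins it 39 bases, or 13 codons, further on. The listed lengths are 1330 bases for Catsper3-201 and 1311 for Catsper3-202, so the transcripts also differ elsewhere. Their coding products were not compared. The sequences around the junction are shown because these 39 bases are in only 1 of the 2 transcripts. The sequences are from the reference transcripts (GENCODE M21, GRCm38, the same assembly as mm10), with 20 bases on each side. Capitals mark the bases at chr13:55798744-55798782 that Catsper3-202 lacks.
Catsper3-201: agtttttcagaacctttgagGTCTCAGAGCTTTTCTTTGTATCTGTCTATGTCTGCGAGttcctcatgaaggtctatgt
Catsper3-202: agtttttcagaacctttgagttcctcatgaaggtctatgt

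In TPM, the longer Catsper3-201 lay at 64.6 in replicate 1 and 89.6 in replicate 2. Catsper3-202, which lacks the capital bases, had a TPM of 10.9 and 6.60, or 14.5% and 6.86% of the gene. It was lower in replicate 2 while the gene as a whole was higher there. The intervals on TPM that the authors deposited for Catsper3-202, 8.89 to 13.4 and 5.18 to 8.10, did not overlap. The header gives no level for these intervals, and they cover the assignment and counting of reads in 1 library, not the spread between animals.

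Among the auxiliary genes, Catsperd, at chr17:56628143-56664456, varied least between the libraries. Its product, the delta subunit, is needed for the channel to be assembled. Catsperd had a TPM of 109.99 and 113.8, from 10492 and 11303 counts and a single listed transcript. Its level did not differ beyond the spread from Catsper2, Catsper4 or Catsperg2.

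Catsperb, the beta subunit gene at chr12:101404653-101626009, was far below the other members. Its TPM was 12.8 in replicate 1 and 18.6 in replicate 2, from 1817 and 2756 counts. The next gene up, Catsper3, was 5.89 and 5.16 times as high, and Catsper1 was 14.7 and 12.1 times as high. Its span of 221357 bases is the longest of the 9, while the length used for TPM was that of its single listed transcript, 3716 bases. Of the 76-base windows of that transcript, 9.97% also occur in the reference gene Gm18795, which was not analysed here.

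Efcab9, at chr11:32522751-32532081, had a TPM of 160.2 and 187.4, from 3570 and 4318 counts. It held rank 3 of the 9 in both libraries and lay between Catsper1 and the pore genes Catsper2 and Catsper4. Its main transcript, 754 bases long with 648 coding bases before the stop codon, is the shortest among the members' leading transcripts, and Efcab9-201 held 100% and 99.7% of the gene. A second listed form, Efcab9-202, had a TPM of 0 and 0.49.

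The gamma subunit has 2 genes in the mouse. Catsperg1 lies at chr7:29181321-29214035 and Catsperg2 at chr7:29697219-29727032, both on the minus strand, with 483183 bases between them. Their coding sequences, 3453 bases in Catsperg1-212 and 3435 in Catsperg2-201 without the stop codon, aligned with 95.8% identity. Of the 76-base windows of the listed Catsperg1 transcripts, 31.3% also occur in Catsperg2, and 28.5% of Catsperg2 windows occur in Catsperg1. No window of Catsper1, Catsper2, Catsper3, Catsper4, Catsperd or Efcab9 occurs in another gene of the reference. The values of the gamma pair therefore rest in part on how reads were divided, and are uncertain to that extent.

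Over all transcripts, the TPM of Catsperg1 was 201.4 in replicate 1 and 231.9 in replicate 2, from 24076 and 29299 counts. Catsperg2 had a TPM of 78.3 and 112.1, from 11862 and 17710 counts. Catsperg1 was the higher in both libraries, by 2.57 and 2.07 times, and the ranges of the genes did not overlap. Catsperg2 made up 27.99% and 32.6% of the pair, a mean of 30.3% ± 3.25 (SD, n = 2). The standard deviation that the authors' assignment gives the counts was 27.5 counts in replicate 1 and 35.0 in replicate 2 for each gene. It covers the division of reads among the transcripts listed, and not reads from other forms of Catsperg2.

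The order was the opposite over coding transcripts alone. Catsperg1 had 14 listed transcripts, 3 of them annotated as protein-coding, and those 3 held 21.04% and 20.2% of its TPM. Retained-intron transcripts, which keep intron sequence in the RNA, held 60.05% and 62.7%, and forms annotated for nonsense-mediated decay held 18.3% and 16.3%. Counting coding transcripts alone, Catsperg1 had a TPM of 42.4 and 46.9, against 78.3 and 112.1 for Catsperg2. Catsperg2 then made up 64.9% and 70.5% of the pair. Catsperg2 has 1 listed transcript, which is coding, against 9 in the later reference, so its coding level could not fall below its full level, and this order depends on the annotation used. The types come from the reference annotation, and this count was added after the values were seen.

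**Figure D2:**
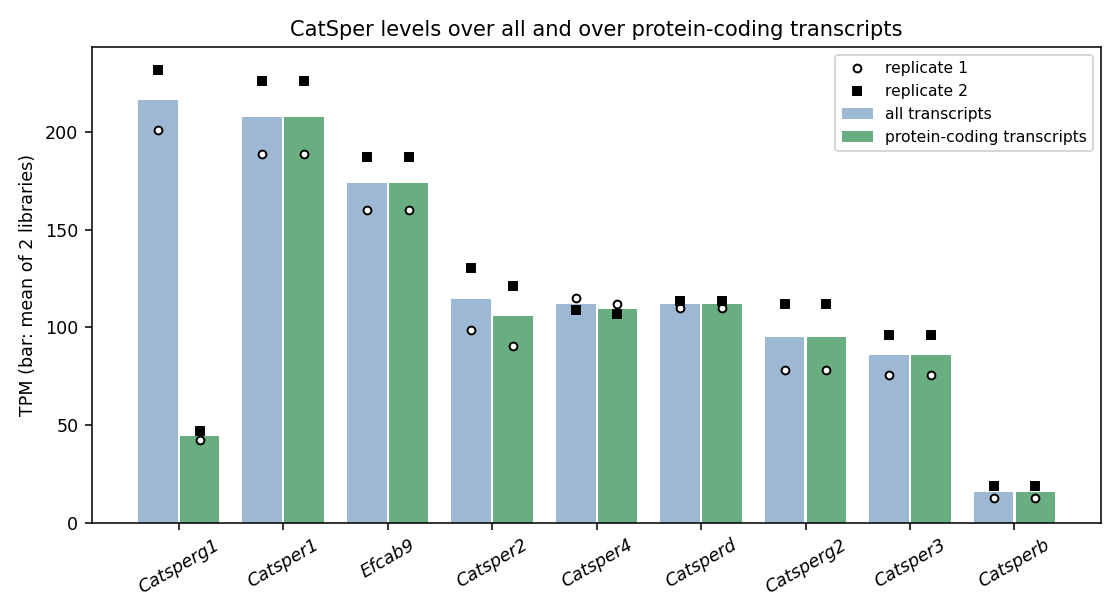
TPM of each CatSper gene over all its transcripts (blue bars) and over transcripts annotated as protein-coding (green bars). Bars are means of 2 libraries, with an open circle for replicate 1 and a filled square for replicate 2. Catsperg1 goes from 216.6 to 44.6. Catsper1, Catsperb, Catsperd and Catsperg2 have 1 listed transcript each, which is coding, so their bars are equal by construction.

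Catsper2, Catsper4 and Catsperg1 are the 3 members with a listed transcript that is not coding, and of these Catsperg1 alone had under 50% of its TPM in coding transcripts in both libraries. Among detected protein-coding genes with such a transcript, 16.6% did so. Catsperg1 was also the only 1 of the 3 whose leading transcript was not protein-coding, against 18.4% of those genes. Of the 5 members with several listed transcripts, it alone had a leading transcript under 60% in both libraries, against 32.7% of detected protein-coding genes with several. By coding transcripts alone the order of the members became Catsper1, Efcab9, Catsperd, Catsper4, Catsper2, Catsperg2, Catsper3, Catsperg1 and Catsperb.

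The leading Catsperg1 form was Catsperg1-209, a retained-intron transcript of 4403 bases, with a TPM of 66.7 and 70.2. The coding form Catsperg1-201 followed at 41.3 and 39.3, and the short retained-intron form Catsperg1-208 at 32.2 and 34.5. The retained-intron form Catsperg1-203, at 14.1 in replicate 1 and 30.2 in replicate 2, had the largest difference in TPM between the libraries among these forms. Its deposited intervals, 10.8 to 16.1 and 26.5 to 32.9, did not overlap. Decay-annotated forms Catsperg1-207 and Catsperg1-206 lay at 19.9 and 19.1, and at 17.0 and 18.7. The full-length coding form Catsperg1-212 was listed at 0 in replicate 1 and at 5.98 in replicate 2, and its deposited intervals, which reached 2.82 in replicate 1 and ran from 1.68 to 8.51 in replicate 2, overlapped.

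**Figure D3:**
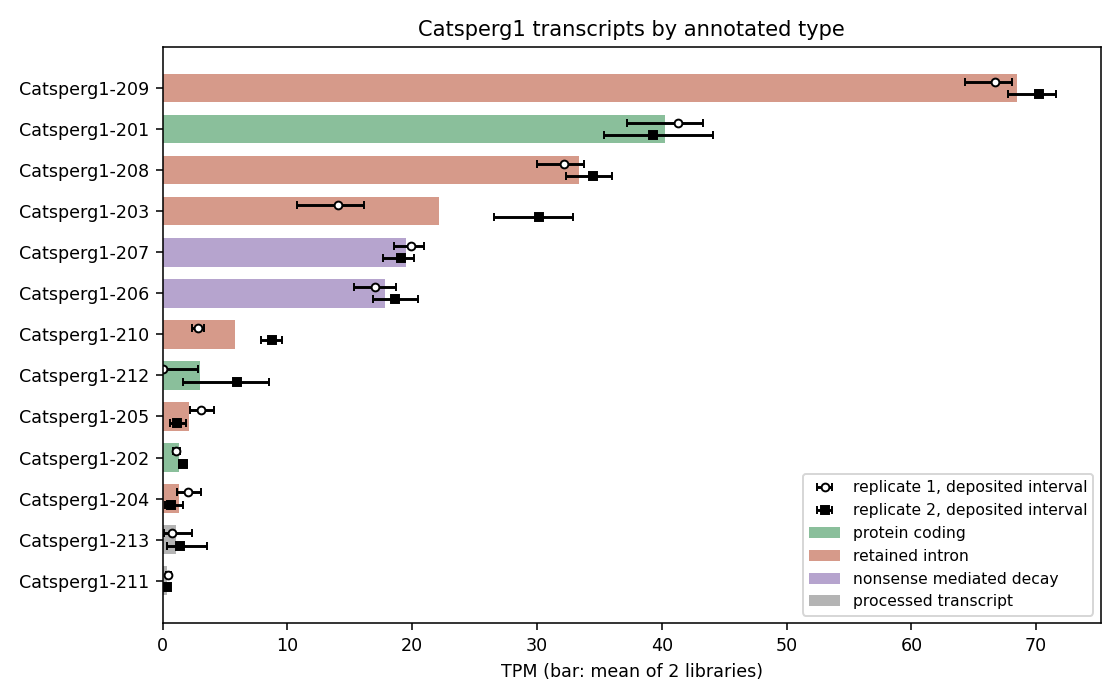
TPM of each Catsperg1 transcript listed above 0, coloured by annotated type, with bars for the mean of 2 libraries and points for each library with the authors' deposited interval. The retained-intron form Catsperg1-209 leads at 66.7 and 70.2, ahead of the coding form Catsperg1-201.

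Of 8 introns kept in at least 1 listed form, that at chr7:29184769-29184994, of 226 bases, had the highest share kept. It is present in Catsperg1-209 and Catsperg1-203 and spliced out in Catsperg1-201 and Catsperg1-212. Forms that keep it had a summed TPM of 80.8 and 100.4, and forms that splice it 41.3 and 45.2, so that 66.2% and 68.9% of these forms kept it. Read on from the coding frame of Catsperg1-201, the stop codon TAA starts after 1 base of the intron. That reading takes all earlier introns as spliced, as they are in Catsperg1-201. It does not hold for Catsperg1-209, the main form that keeps the intron, which also keeps introns before it. The intron at chr7:29190332-29190436 was kept in 54.6% and 50.9% of the forms that either keep or splice it, and the intron at chr7:29185252-29185436 in 48.0% and 42.7%. Catsperg1-209, at a TPM of 66.7 and 70.2, makes up most of each of these shares. It is the only form that keeps the intron at chr7:29185252-29185436, so the shares are not separate events. The next highest was at 22.3% and 19.4%. These shares are built from TPM assigned to whole transcripts, not from reads counted across each junction.

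The intron is printed beside its counterpart in Catsperg2, because their likeness bears on which gene the retained reads were given to. Both run 5′ to 3′ on the minus strand of GRCm38, the second at chr7:29700395-29700620, and capitals mark the 5 mismatches among 226 bases.
Catsperg1 intron: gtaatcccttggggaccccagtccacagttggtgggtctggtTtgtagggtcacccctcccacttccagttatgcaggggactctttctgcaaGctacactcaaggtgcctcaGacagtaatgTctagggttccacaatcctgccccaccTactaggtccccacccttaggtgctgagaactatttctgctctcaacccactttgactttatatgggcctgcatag
Catsperg2 intron: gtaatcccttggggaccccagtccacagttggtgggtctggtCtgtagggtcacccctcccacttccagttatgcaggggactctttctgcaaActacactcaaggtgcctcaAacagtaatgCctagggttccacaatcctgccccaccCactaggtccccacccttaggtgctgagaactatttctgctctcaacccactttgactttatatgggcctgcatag

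The introns were 97.8% identical. The deposited tables list 1 Catsperg2 transcript, which splices it out. The later reference lists 9, and 2 of them, Catsperg2-202 and Catsperg2-208, keep the matching intron. Of the 301 windows of 76 bases that touch the intron in Catsperg1-209, 84 (27.9%) also occur in reference Catsperg2 transcripts. The part that RNA of Catsperg2 has in the retained-intron level of Catsperg1 was not tested.

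Catsperg1 forms also differed in exon 15 of the 29 exons of Catsperg1-212, which has 159 bases or 53 codons at chr7:29195413-29195571. Forms with the exon had a summed TPM of 71.6 and 85.6, and forms that skip it 92.3 and 107.2, so 43.7% and 44.4% included it. Most of the TPM with the exon was that of the retained-intron form Catsperg1-209, at 66.7 and 70.2. Catsperg1-212, the coding form among those with the exon, was listed at 0 and 5.98. Catsperg1-201, the main coding form, skips the exon and lay at 41.3 and 39.3. Catsperg2-201 has a matching exon 15 at chr7:29710009-29710167, and the pair is shown because this exon is the least alike stretch described here. Both are from the minus strand of GRCm38, with capitals at the 18 mismatches.
Catsperg1 exon 15: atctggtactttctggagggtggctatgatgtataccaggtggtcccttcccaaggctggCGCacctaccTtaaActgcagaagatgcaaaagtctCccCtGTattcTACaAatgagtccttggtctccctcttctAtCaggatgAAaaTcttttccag
Catsperg2 exon 15: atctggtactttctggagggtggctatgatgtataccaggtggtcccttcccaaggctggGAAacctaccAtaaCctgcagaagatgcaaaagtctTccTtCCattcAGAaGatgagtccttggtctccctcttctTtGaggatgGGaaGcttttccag

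The exons were 88.7% identical, below the 95.8% of the coding sequences as a whole. All 18 mismatches lie in the later stretch of the exon, after a run in which the genes do not differ.

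Levels of the members were ordered by mean TPM as Catsperg1, Catsper1, Efcab9, Catsper2, Catsper4, Catsperd, Catsperg2, Catsper3 and Catsperb. Of the 36 pairs of members, 28 had library ranges that did not overlap. Catsperg1 and Catsper1 overlapped. So did each pair among Catsper2, Catsper4, Catsperd and Catsperg2, and Catsperg2 with Catsper3. Within each library, 4 of these 8 overlapping pairs kept 1 order. Catsperg1 was 1.07 and 1.02 times Catsper1, Catsper2 was 1.26 and 1.16 times Catsperg2, Catsperd was 1.41 and 1.01 times Catsperg2, and Catsperg2 was 1.04 and 1.17 times Catsper3. The other 4 pairs changed order between the libraries. Efcab9 and Catsperb stood clear of their neighbours, although Efcab9 in replicate 2, at 187.4, was close to Catsper1 in replicate 1, at 188.7. No p-value is given, since an exact paired permutation test over 2 libraries cannot go below 0.5.

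Differences between the libraries were read from log2 ratios of replicate 2 over replicate 1, from counts scaled by TMM (edgeR's trimmed mean of M-values). Of the 9 members, 8 were higher in replicate 2, against 50.5% of the 19534 genes that reached 10 counts in each library. None was more than 2-fold apart, where 3.94% of those genes were. Among the 13334 tested genes that were detected and protein-coding, as all members were, 141 were that far apart. Catsperb had the largest ratio at 0.52 (95% counting interval 0.44 to 0.61), then Catsperg2 at 0.50 (0.47 to 0.54), Catsper2 at 0.38 (0.34 to 0.43) and Catsper3 at 0.33 (0.27 to 0.39). Catsper1, Catsperg1 and Efcab9 lay at 0.24, 0.21 and 0.20. Catsperd was at 0.03 (-0.01 to 0.07), and Catsper4 was the only member lower in replicate 2, at -0.09 (-0.14 to -0.04).

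Counting intervals lay above 0 for 7 members and below 0 for 1, against 26.1% and 25.6% of tested genes. These intervals cover counting error only, and they narrow as counts rise. Tested genes include some with far fewer counts than any member, so 26.1% and 25.6% are not matched to the members for depth. Spread between the libraries beyond counting error, as edgeR's biological coefficient of variation, was 0.183 over 19534 genes, which gives a log2 ratio an SD of 0.37. Within that SD of 0 were 6 of the 9 members, against 74% of tested genes. Catsperb, Catsperg2 and Catsper2 lay outside it. The count depends on the SD used. Over genes that reached 100 counts in each library, as all members did, the SD was 0.28 and 5 members lay within it, Catsper3 being outside too, against 72.9% of those genes. From the median of DESeq2's gene-wise dispersions the SD was 0.13, and only Catsper4 and Catsperd lay within it, against 35% of tested genes. With 1 library on each side these differences have no replicate check.

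**Figure D4:**
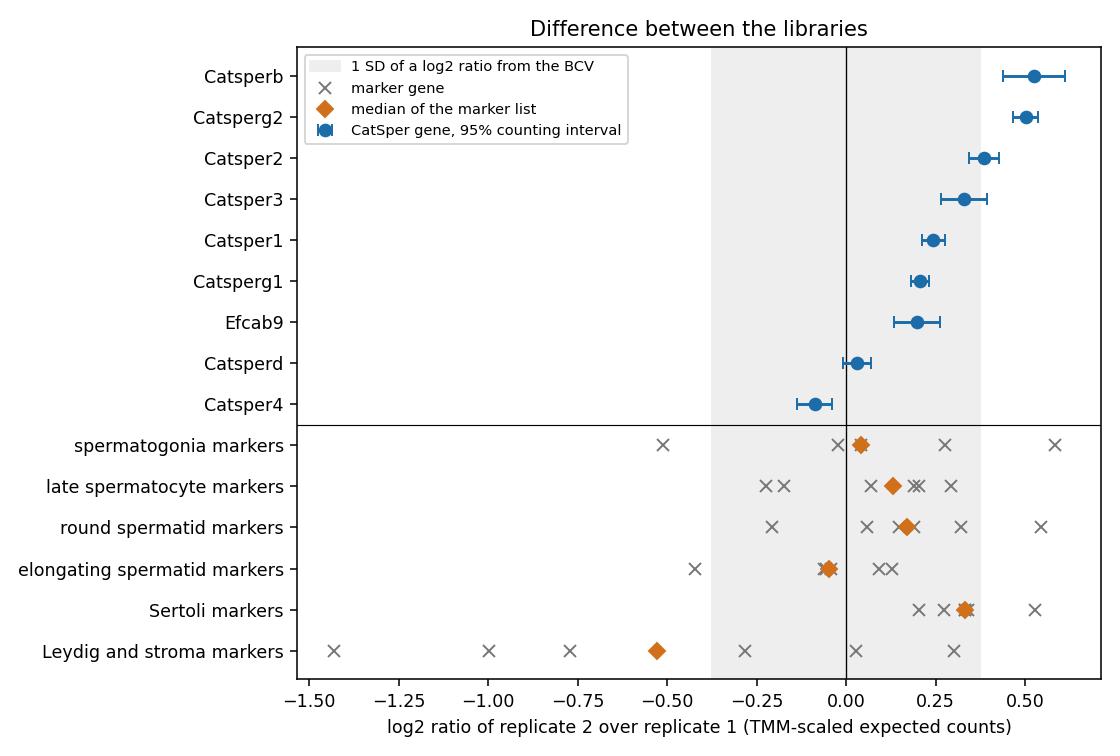
Log2 ratio of replicate 2 over replicate 1 for each CatSper gene with its 95% counting interval (above the line), and for marker genes of testis cell types (crosses) with the median of each list (diamonds, below). The grey band is 1 SD of 0.37 around 0. Catsperb, Catsperg2 and Catsper2 are the members beyond this band, which other estimates of the SD make narrower.

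Medians of the marker lists below lay within 0.37 of 0, except in the Leydig and stromal list and the epididymal list. In the epididymal list only 1 gene was tested, Crisp1, with a log2 ratio of -11.2. Sertoli cell markers, from the somatic cells that nurse germ cells, were higher in replicate 2 for 6 of 6 genes (median log2 ratio 0.33). Their summed TPM was 1390 and 1776, most of it from Clu at 1193 and 1524. Round spermatid markers were higher in 5 of 6 (median 0.17) and late spermatocyte markers in 4 of 6 (median 0.13, summed TPM 7258 and 7939). Elongating spermatid markers were higher in 2 of 6 (median -0.05). Spermatogonial markers had a median of 0.04 over 5 tested genes, with a summed TPM of 87.6 and 96.1, most of it from Uchl1 at 69.9 and 75.1. In the list of Leydig and stromal genes, 4 of 6 were lower in replicate 2 (median -0.53). The smooth muscle genes Acta2 and Myh11 had log2 ratios of -0.998 and -1.43, and the stromal gene Dcn -0.77. The summed TPM of the list was 4621 and 5562, most of it from Insl3, a Leydig cell hormone, at 4187 and 5278. Leydig genes did not move together, with log2 ratios of 0.30 for Insl3, 0.03 for Star and -0.28 for Cyp17a1. No marker outside the epididymal list was at 0. The part of cell makeup in the ratios of the CatSper genes was not tested.

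Other genes linked to the channel, not all of them for subunits, were read from a list of 9 partners. Tmem249 was not analysed here, and each of the 8 others was detected (median TPM 59.4). Catsperz, whose product pairs with EFCAB9, stood far above every member at 1242 and 1103. It was 7.75 and 5.89 times Efcab9, and its log2 ratio was -0.20 where that of Efcab9 was 0.20. Tmem262, a small membrane subunit, had a TPM of 169.3 and 190.1, close to Efcab9. Trim69 lay at 96.1 and 105.4.

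C2cd6, which encodes a C2-domain protein of the sperm tail, had a TPM of 71.1 and 77.9. Slco6c1, a transporter-like subunit, had 30.03 and 39.3, and Abhd2, a lipid hydrolase that responds to progesterone, 45.0 and 43.6. The epsilon subunit genes had the lowest mean levels of the 8. Catspere1 had 25.7 and 29.6 and Catspere2 22.0 and 29.1. The reference calls Catspere1 an unprocessed pseudogene, and 16.3% of its windows occur in Catspere2, so these values are uncertain. Log2 ratios were above 0 for 6 of the 8 partners, with a median of 0.12, and none was more than 2-fold apart.

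Genes of a list tied to pH, bicarbonate and voltage in sperm were detected in 8 of 10 cases, with a median TPM of 35.2. Atp1a4, the sodium pump of sperm, led at 286.4 and 286.8, above Catsper1. Adcy10, the bicarbonate-activated adenylyl cyclase, had 73.3 and 75.1, and Lrrc52, a subunit of the sperm potassium channel, 53.9 and 64.8. Slc26a3, an anion exchanger, was lowest at 0.4 and 0.06. The median log2 ratio of the 9 tested was 0.00, against 0.24 for the CatSper genes. That comparison is a description of these libraries.

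CatSper pore genes were compared with 12 pore genes of other voltage-gated and two-pore calcium channels. Of these, 9 were detected, with a median TPM of 3.80 where the 4 CatSper pore genes had 113.3. Cacna1h, a T-type channel gene, was the highest at 75.1 and 68.4. Catsper3, the lowest CatSper pore gene, was level with it in replicate 1 at 75.5 and above it in replicate 2 at 96.2. Cacna1s followed at 17.3 and 14.3 and Tpcn1 at 11.9 and 11.3, and Cacna1f was lowest at 0.09 and 0.08. By scaled counts, 2 of the 11 tested genes in this list were higher in replicate 2, Cacna1h among them with a log2 ratio of 0.02 although its TPM was lower there.

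**Figure D5:**
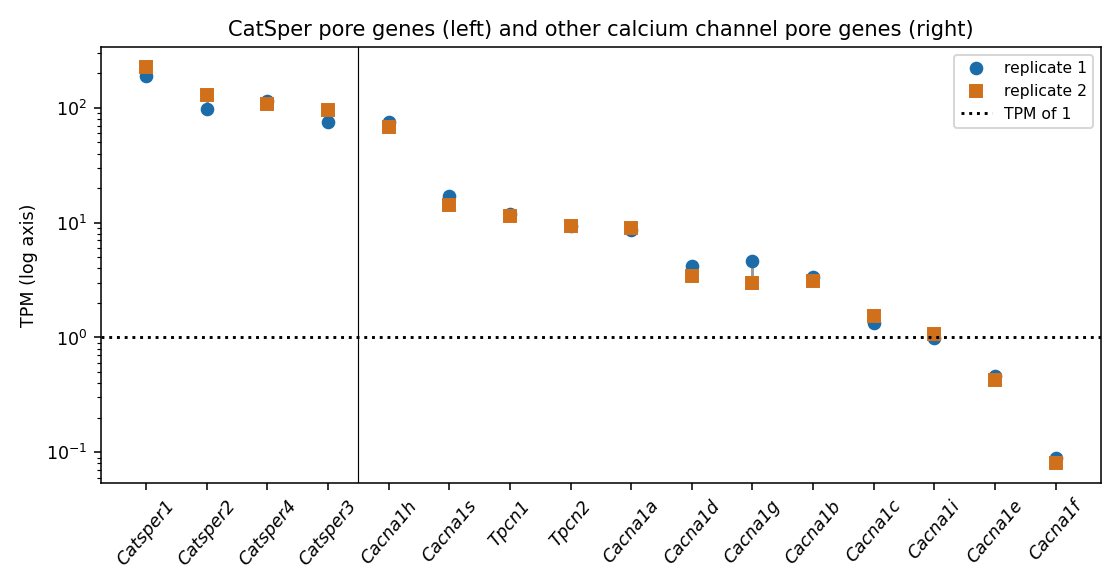
TPM on a log axis of the 4 CatSper pore genes (left of the line) and 12 other calcium channel pore genes (right), with a circle for replicate 1 and a square for replicate 2. Cacna1h at 75.1 and 68.4 comes nearest to the CatSper genes, and Cacna1e and Cacna1f lie under a TPM of 1 in both libraries.

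Neighbouring genes overlap few of the members. Pdia3, on the opposite strand, shares 18 bases with the span of Catsper2 and had a TPM of 207.6 and 197.3. The sources used here do not say whether counting used strand. The pseudogene Gm14001 lies inside Catsper2 on the same strand, with a TPM of 1.09 and 0, and the pseudogenes Gm17113 and Gm14000 and the miRNA gene Gm24542, inside the spans of Catsperg1, Catsper2 and Catsperb, were listed at 0. By distance in log2(TPM + 1) over the 2 libraries, the protein-coding genes closest to the median of the 4 pore genes were Ctdnep1 (0.0060), Tmem230 (0.020) and Tmem175 (0.021).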

How the data were processed

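The deposited readme names mm10 and annotation release M4. The authors' expected counts, per the file headers, are estimated reads per gene and transcript, not normalised, and TPM is their length-scaled form. The deposited tables also hold posterior means, intervals on TPM, and each transcript's share as a percent of its gene. Which aligner and assignment program were run: not given in the sources used here.

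Symbols, types and transcript sequences came from GENCODE M21 by unversioned identifier, which matched 42462 genes. Rounded expected counts were scaled with edgeR 4.0.16 in R 4.3.3 (TMM over genes reaching 10 counts in each library), with exact binomial 95% intervals. DESeq2 1.42.0 was the alternative. The ratio and dispersion steps were tested on simulated data with 200 changed genes. Alternatives were another TPM minimum, posterior means, other scalings, no count filter and each library alone. A count of 0 allows a share of up to 6.12e-06% in replicate 1 and 5.83e-06% in replicate 2 (3 counts). Intervals cover counting error only. Junctions and contigs on mm9 were not used.

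The members and lists were chosen with earlier results of these data known. The text names all members, transcripts with at least 10% of a gene, all partners, the 3 highest and the lowest gene of other lists, the 3 genes nearest in level, and overlapping genes. Smaller transcripts, the Catsperg1 introns and exon, single marker genes and Catsperb's window overlap were chosen after values were seen.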

Additional observations from a re-analysis of the deposited data

How the results depend on the processing

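Detection of all 9 members, 0 members past 2-fold and the single member with a leading transcript under 60% held under each alternative run for them. The 36 alternative log2 ratios all stayed inside their counting intervals, moving by at most 0.0066, and posterior mean TPM moved a member by at most 0.909%. The biological coefficient of variation was 0.138 with at least 100 counts in both libraries and 0.0652 by the median DESeq2 gene-wise dispersion, against 0.183. Members within 1 SD of 0 numbered 5 and 2 by these, against 6, a count added after seeing the data. The Catsperg2 share of the gamma pair was 35.3% by expected counts, which are not per length, and 67.7% over protein-coding transcripts alone, against 30.3%. Over protein-coding transcripts alone 1 of 9 members kept its rank, as Catsperg1 moved from first to eighth. Catsperd also moved above Catsper4 and Catsper2, although its library range overlapped with theirs. In each library alone, the Catsperg2 share was between 27.99% and 32.6%. No paired analysis was possible because there is 1 group, so no library has a counterpart in another group. Genes were compared within each library. Depth limits Catsperb and the rare transcripts most. The deposited interval spanned 9.11% and 7.41% of Catsperb's TPM.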

Other observations

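Genes of a list for calcium release from stores and calcium clearance were detected in 10 of 14 cases, with a median TPM of 2.85. Plcz1, the sperm phospholipase that starts calcium waves in the egg, led at 69.9 and 86.2. The reticulum pump gene Atp2a2 followed at 49.1 and 54.9, and the Golgi pump gene Atp2c1 at 32.3 and 36.3. Ryr2, a calcium release channel gene of the heart, was lowest at 0.14 and 0.2. Atp2b4, the plasma membrane calcium pump of the sperm tail, was picked out with its level known, at a TPM of 19.4 and 19.8, between Catsperb and Catsper3. Of the 14 genes, 10 were higher in replicate 2, with a median log2 ratio of 0.06, and none was more than 2-fold apart.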
